A study of Mus musculus with 36 samples.

Results

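The chromatin response of mouse cortical neurons to 6 h of KCl was described from the ATAC-seq read counts of 2 libraries of neurons depolarised with KCl for 6 h and 6 control libraries, 8 of the 18 ATAC-seq libraries and of the 36 samples in the series. These libraries were chosen by their labels alone, and no measured value entered the choice. Neurons were dissociated from pooled cortices of CD-1 mouse embryos at embryonic day 15 and kept for 7 days in vitro. Every culture, controls included, was first kept for 2 h in AP-5 (100 µM), which blocks NMDA receptors, and TTX (1 µM), which blocks sodium channels, so that the neurons were silent. KCl 6 h neurons then received 55 mM KCl for 6 h. Controls had AP-5 and TTX alone, for 3, 8 or 12 h in all, with 2 libraries at each time. Neurons stimulated with KCl for 1 or 10 h or with 10 ng/ml BDNF for 6 h (2 libraries each) served as comparison groups, and RNA-seq libraries of the same groups gave the RNA levels. The cultures came from whole dissected cortex, so glia and progenitors could be present beside neurons. The labels do not tie libraries to separate cultures, so p-values measure the spread between these libraries.

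ATAC-seq counts insertions of the Tn5 transposase, which cuts DNA that is not covered by nucleosomes, so that the reads in a peak rise when a promoter or enhancer opens and fall when it closes. In neurons, raised potassium depolarises the membrane and opens voltage-gated calcium channels, and the calcium that enters switches on a first wave of transcription factors followed by a later wave of secreted and synaptic proteins. Members of the first wave include Fos and Jun proteins, which bind DNA as AP-1 dimers at the letters TGANTCA, and calcium also acts on MEF2 factors, which bind an AT-rich motif. BDNF, a secreted protein, reaches an overlapping but different set of genes, mainly through its receptor TrkB and the MAP kinase pathway.

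Reference sequences of 7 called peaks show the letters on which the motif counts rest. Each is the 200 bp at the centre of a peak on the plus strand of GRCm38 (mm10), taken from the RefSeq assembly, and capitals mark the motifs that were searched. Gained peaks, in which accessibility was higher at KCl 6 h, are shown first. The intergenic window 61.2 kb from Asb7 (chr7:66593698-66593897) holds 2 AP-1 motifs, that on chromosome 1 far from Cdc73 (chr1:142209002-142209201) holds 1 AP-1 and 1 MEF2 motif, that in an intron of Mllt10 (chr2:18113648-18113847) holds 1 AP-1 motif, that in an intron of the calcium channel gene Cacna2d1 (chr5:16001044-16001243) holds 2 AP-1 motifs, and that in an intron of the calcineurin gene Ppp3ca (chr3:136788809-136789008) holds 1 MEF2 and no AP-1 motif. Closing peaks follow, in an intron of Daam1 (chr12:71957617-71957816, 1 E-box) and in an intron of Cfap46 (chr7:139676553-139676752, none of the motifs searched).
Asb7: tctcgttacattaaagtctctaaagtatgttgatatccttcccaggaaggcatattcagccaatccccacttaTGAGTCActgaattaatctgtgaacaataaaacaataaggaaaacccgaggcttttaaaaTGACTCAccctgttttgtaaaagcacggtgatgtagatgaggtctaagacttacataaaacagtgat
Cdc73: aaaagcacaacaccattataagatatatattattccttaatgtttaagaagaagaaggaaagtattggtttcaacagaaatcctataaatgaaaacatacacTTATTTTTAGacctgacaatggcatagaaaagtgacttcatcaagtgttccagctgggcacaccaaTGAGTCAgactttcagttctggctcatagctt
Mllt10: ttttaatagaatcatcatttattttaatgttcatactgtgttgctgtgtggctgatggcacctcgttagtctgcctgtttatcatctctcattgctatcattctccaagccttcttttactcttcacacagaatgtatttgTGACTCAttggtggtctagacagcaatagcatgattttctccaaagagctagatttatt
Cacna2d1: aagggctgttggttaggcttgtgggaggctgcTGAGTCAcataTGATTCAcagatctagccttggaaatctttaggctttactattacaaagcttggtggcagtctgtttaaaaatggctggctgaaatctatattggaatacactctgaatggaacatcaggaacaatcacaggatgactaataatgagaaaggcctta
Ppp3ca: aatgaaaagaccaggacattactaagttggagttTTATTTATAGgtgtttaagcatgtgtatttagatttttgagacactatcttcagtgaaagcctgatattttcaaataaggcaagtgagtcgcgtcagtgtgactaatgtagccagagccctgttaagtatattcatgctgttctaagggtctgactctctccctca
Daam1: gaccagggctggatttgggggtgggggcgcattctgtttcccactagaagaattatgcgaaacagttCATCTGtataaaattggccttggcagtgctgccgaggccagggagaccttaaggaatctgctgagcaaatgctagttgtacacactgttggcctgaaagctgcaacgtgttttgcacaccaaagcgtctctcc
Cfap46: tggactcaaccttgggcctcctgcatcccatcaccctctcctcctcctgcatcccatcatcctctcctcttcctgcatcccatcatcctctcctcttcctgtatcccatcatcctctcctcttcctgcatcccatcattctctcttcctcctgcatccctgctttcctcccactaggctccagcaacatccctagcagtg

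Chromatin opened at more places than it closed after 6 h of KCl, and the places differed in kind. Of 56383 peaks tested, 3066 gained accessibility (5.44%) and 1159 closed (2.06%), 7.49% called in all (edgeR quasi-likelihood test, Benjamini-Hochberg adjusted p below 0.1). Gained peaks were mostly weakly accessible sites far from promoters that carried AP-1 motifs. Closing peaks were mostly well accessible sites that rarely held an AP-1 motif. They were more often at promoters, by a margin that depended on the scaling. The median scaled count of gained peaks was 11.9 in controls and 32.9 at KCl 6 h, and that of closing peaks was 52.2 in controls and 24.9 at KCl 6 h. A scaled count is the read count of a peak after LOESS scaling of each library to a common level, and its median over all peaks tested was 28.1 in controls and 28.8 at KCl 6 h.

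Among gained peaks, 2298 (75.0%) rose at least 2-fold and 467 at least 4-fold, with a median log2 fold change of 1.39. Among closing peaks, 598 (51.6%) fell at least 2-fold and 75 at least 4-fold, with a median of -1.03. The median over all peaks tested was -0.00. Both KCl 6 h libraries lay above all 6 controls at 5706 peaks (10.1% of those tested), and 2560 of the gained peaks (83.5%) were among them. Both lay below all 6 controls at 4174 peaks (7.4%), and 1019 of the closing peaks (87.9%) were among them. Peaks entered the test by their mean count over all 18 ATAC-seq libraries, and 1326 gained peaks (43.2%) had a control mean under 10, against 7.06% of all peaks tested and 0 of the closing peaks, so many gained peaks passed that filter through stimulated libraries.

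The 2 KCl 6 h libraries differed in depth, which bears on every count of calls. Library A held 4.20 M reads (M for mega) in tested peaks and library B 1.24 M, against 2.42 to 4.23 M in controls. Library B stood at the lowest value of the table, 1 read, in 3.04% of tested peaks, library A in 0.021% and controls in 0.514 to 1.15%. Their log2 counts had a Pearson r of 0.857 across peaks, which are not independent replicates. That was the lowest of the 9 replicate pairs, whose highest was 0.925. Without library A 832 peaks gained and 424 closed, and without library B 1947 gained and 452 closed. Fold changes kept their sign without library A at 2984 of the 3066 gained and 1158 of the 1159 closing peaks. Gained peaks were 72.6% of all called peaks with LOESS scaling, 65.9% with TMM, 58.2% with DESeq2 size factors, 72.3% with reads in peaks and 53.6% with limma on log2 values.

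**Figure D1:**
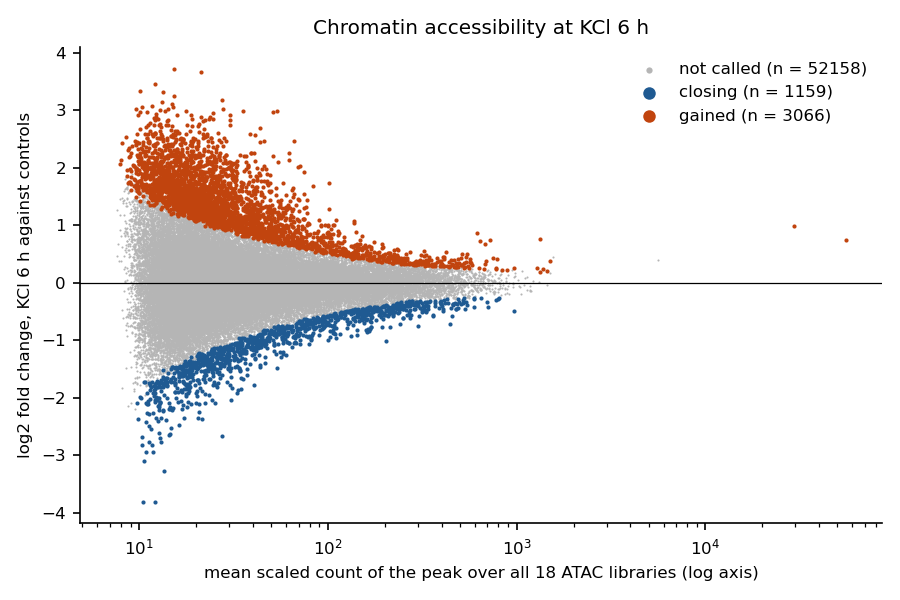
Each point is 1 of the 56383 peaks tested, with its mean scaled count over all 18 ATAC-seq libraries on a log axis and the log2 fold change of KCl 6 h over controls on the vertical axis. Gained peaks (orange, 3066) reach the highest fold changes at low mean counts, closing peaks (blue, 1159) extend to -3.81, and peaks not called (grey) lie around 0.

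The largest gained peaks, taken by fold change among called peaks beyond all controls in both libraries, were almost closed in silenced neurons. The 8 described had control means of 1.53 to 4.19 scaled counts, under the filter of 10, so they entered the test through high stimulated libraries, and their p-values are given as a description. The peak with the largest fold change lay in an exon of Mllt3, which encodes a subunit of a transcription elongation complex (chr4:87838818-87839147, 32.7 kb from the nearest annotated start of the gene). Its scaled count was 20.0 in library A and 22.7 in library B, and 0.894, 1.06 and 2.98 as the lowest, median and highest of the controls, so the groups were far apart. The log2 fold change was 3.73 ± 0.58 (SE, edgeR adjusted p = 2.64e-06), and the ratio of summed reads was 14.1 with a 95% counting interval of 6.44 to 35.1, which covers counting error only. The intergenic peak 61.2 kb from Asb7, which encodes a substrate receptor of a ubiquitin ligase, lies at chr7:66593659-66593937 and was the source of the first sequence above. It held 31.9 and 35.6 scaled counts at KCl 6 h against 0.850 to 5.86 in controls (median 2.06), a log2 fold change of 3.68 ± 0.48 (edgeR adjusted p = 7.04e-09).

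Other large gained peaks lay in gene deserts or in introns. The peak at chr1:142208967-142209238 has Cdc73, a subunit of the PAF1 transcription complex, as its nearest protein-coding gene at a distance of 1427 kb. Library A held 24.5 and library B 31.2 scaled counts there, against 0.970 to 5.53 in controls, a log2 fold change of 3.46 ± 0.57 (edgeR adjusted p = 8.71e-06). In the intron of Mllt10, which encodes a cofactor of a histone methyltransferase, the peak at chr2:18113684-18113812 held 15.7 and 21.3 against 1.02 to 3.30 in controls, with a log2 fold change of 3.33 ± 0.63 (edgeR adjusted p = 0.000139). The peaks nearest to Lgsn, which encodes a lens protein (chr1:31156954-31157302), and to Aldoart1, an aldolase gene of the testis (chr4:72574662-72574920), had log2 fold changes of 3.18 ± 0.46 and 3.15 ± 0.64. These 6 peaks all held an AP-1 motif in their central 200 bp, and 2 did not. The first without it lay 754 kb from Mms22l, a DNA repair gene (chr4:23742314-23742631), and held 34.8 and 51.4 scaled counts against 2.13 to 6.85 in controls, a log2 fold change of 3.32 ± 0.49 (edgeR adjusted p = 3.64e-07). The second lay in an intron of Dip2c (chr13:9538650-9539033), held 1 MEF2 motif, and rose to 48.9 and 30.2 from 1.79 to 9.39, a log2 fold change of 3.26 ± 0.46 (edgeR adjusted p = 1.21e-07).

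The largest closing peaks were narrow, 129 to 183 bp wide, and nearly empty at KCl 6 h. In the intron of Daam1, which encodes a formin that builds actin filaments, the peak at chr12:71957626-71957808 held 1 read in each KCl 6 h library, the lowest value the table has. Its scaled counts were 0.708 and 2.70, against 7.29, 15.5 and 28.8 as the lowest, median and highest of the controls, and the groups did not overlap. The ratio of summed reads was 0.0631 with a counting interval of 0.00751 to 0.235, and the log2 fold change was -3.81 ± 0.88 (edgeR adjusted p = 0.00232). The peak in the intron of Cfap46, a gene of the ciliary axoneme (chr7:139676571-139676736), also held 1 read in each KCl 6 h library and 9.62 to 24.4 scaled counts in controls, with a ratio of 0.0631 (0.00753 to 0.235) and an edgeR adjusted p of 0.00261.

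Another 4 closing peaks each held 3 reads over both KCl 6 h libraries. They lay in the promoter window of Pak1ip1, which encodes a regulator of the kinase PAK1 (chr13:41000169-41000345, ratio 0.0941, interval 0.0191 to 0.284), in an intron of Schip1, which encodes a protein of the axon initial segment (chr3:68615210-68615350, 0.106, 0.0214 to 0.321), 140 kb from Csmd1, which encodes a complement-regulating membrane protein (chr8:15844875-15845003, 0.122, 0.0245 to 0.372), and in an intron of Fyn, a Src-family kinase (chr10:39387222-39387385, 0.119, 0.0240 to 0.362). After thinning to the shallowest library, 3 of the 6 largest closing peaks lost their call and none of the 8 largest gained peaks did. With only KCl 6 h and controls, 1 of the 8 gained peaks lost its call. All 14 of these gained and closing peaks kept their call when library B was left out, and the 8 gained peaks also without library A. The 6 closing peaks lost theirs without library A, when only the shallow library was left.

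**Figure D2:**
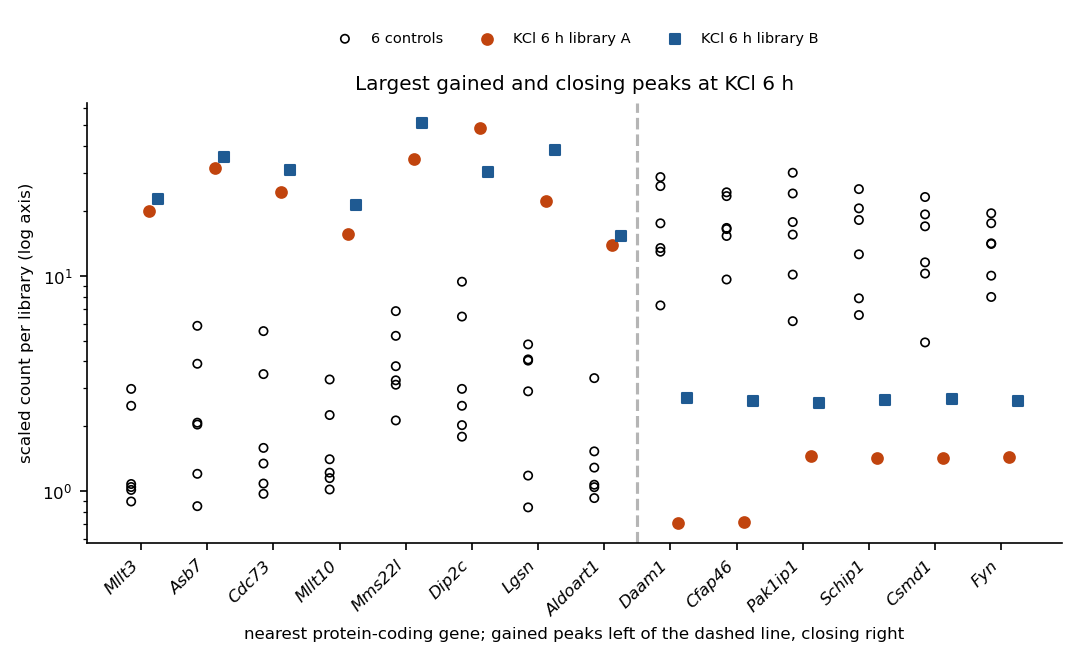
Scaled counts on a log axis of the 8 gained and 6 closing peaks with the largest fold changes, named by the nearest protein-coding gene, in the 6 controls (open circles), KCl 6 h library A (filled circles) and library B (squares). KCl 6 h values lie above all controls at the gained peaks, from 13.9 upwards, and below all controls at the closing peaks, at 0.708 to 2.70.

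Gained peaks lay farther from promoters than all peaks tested, and closing peaks nearer, the latter by a margin that depended on the scaling. A promoter window reached from 1000 bp before to 100 bp after the start of any annotated transcript. It held 12.7% of gained and 39.4% of closing peaks, against 27.1% of all peaks tested. Intergenic positions held 46.8% of gained, 27.1% of closing and 35.0% of all peaks, and introns held 36.3%, 28.6% and 33.2%. The median distance to the nearest start of a protein-coding gene was 53.5 kb for gained, 8.76 kb for closing and 20.2 kb for all peaks, and 38.0% of gained peaks lay more than 100 kb away, against 14.9% of closing and 23.5% of all peaks. Gained peaks had a median GC content of 42.4% and closing peaks 52.7%, against 49.0% for all peaks. The promoter shares moved with the scaling. With TMM, 6.37% of gained and 69.3% of closing peaks were at promoters. With GC-corrected offsets, an alternative added after seeing the data, the shares were 16.8% and 29.9%. The order of the pair held but its width did not, and the GC-corrected share of closing peaks was near the 27.1% of all peaks.

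The few gained promoters changed little. The 388 gained peaks at promoters had a median control level of 134 scaled counts and a median log2 fold change of 0.51, against 10.5 and 1.46 for the 2678 other gained peaks. Calls also varied with level. Of the 11277 peaks with the lowest mean level 6.62% gained and 1.21% closed, and of the 11277 with the highest 3.94% gained and 3.79% closed. Closing promoters had a median control level of 166 and a median log2 fold change of -0.55, and the other closing peaks 33.7 and -1.33.

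Of the 12 motifs searched, AP-1 differed most between gained and closing peaks. In the central 200 bp, searched on both strands, the AP-1 letters TGANTCA occurred in 54.9% of gained peaks (95% exact binomial interval 53.1 to 56.7), 3.36% of closing peaks (2.40 to 4.57) and 13.0% of all peaks tested. These intervals cover counting error only. At non-promoter gained peaks the share was 60.7%, against 16.5% of all non-promoter peaks, and at promoter gained peaks 14.7%, against 3.54% of all promoter peaks. Gained peaks with a control mean of at least 10, which did not need stimulated libraries to pass the filter, held AP-1 in 37.6%. The share was 54.6% with TMM scaling, and leaving out library A or B of KCl 6 h gave 50.4% or 63.2%. The motif also lay close to the peak centre, since 26.3% of the AP-1 motifs in the central 400 bp of gained peaks lay within 25 bp of it, against 13.3% for closing and 20.5% for all peaks.

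The gained share was higher among peaks with more AP-1 motifs. Among 49072 peaks without the motif, 2.82% gained, and this was 19.3% of 6210 peaks with 1 motif, 42.6% of 963 with 2 and 54.3% of 138 with 3 or more. Closing ran the other way, at 2.28% without the motif, 0.628% with 1 and 0 of the peaks with 2 or more. The control level fell along the same order, with medians of 31.0, 14.3, 7.55 and 5.57 scaled counts, so peaks with several motifs more often passed the filter through stimulated libraries. Among peaks with a control mean of at least 10, a limit chosen after seeing the data, 2.27% of 47842 without the motif gained, 12.4% of 4176 with 1, 34.4% of 355 with 2 and 14 of 28 with 3 or more. Over all tested peaks, 10.6% of promoter peaks with and 2.25% without the motif gained, as did 22.3% and 2.76% of intron peaks and 25.7% and 3.45% of intergenic peaks.

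**Figure D3:**
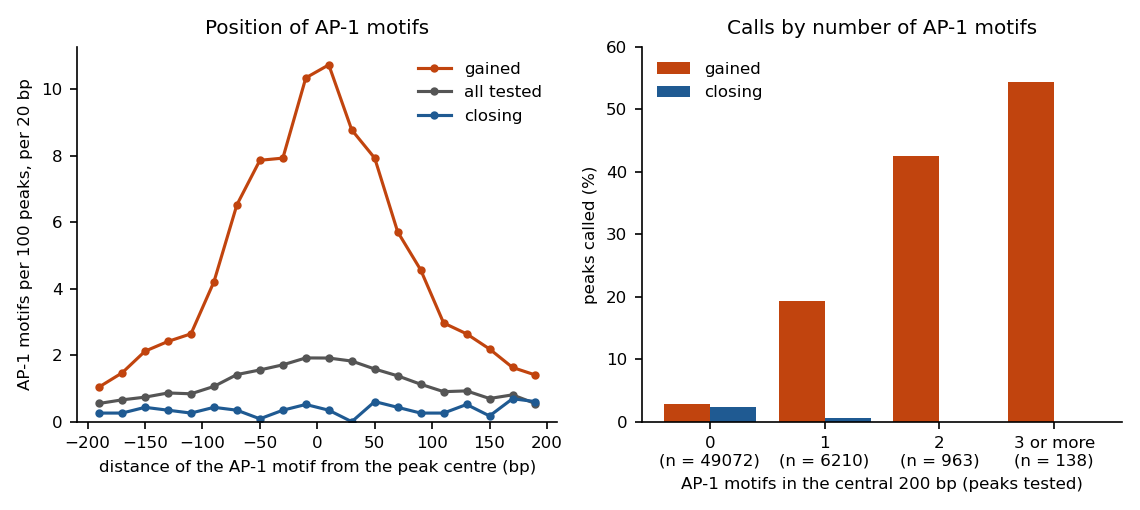
Left, AP-1 motifs per 100 peaks in 20 bp bins of distance from the peak centre, for gained peaks (orange), all peaks tested (grey) and closing peaks (blue), with a maximum at the centre for gained peaks. Right, the percentage of tested peaks that gained (orange) or closed (blue) by the number of AP-1 motifs in the central 200 bp, where the gained share goes from 2.82% without the motif to 54.3% with 3 or more.

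MEF2 motifs were the next to be more frequent in gained peaks, at 7.01% against 0.949% of closing and 3.12% of all peaks. The octamer ATGCAAAT of POU factors occurred in 4.34%, 2.50% and 3.17%, and the homeobox core TAATTA in 11.3%, 7.85% and 9.34%. The E-box CAGATG, bound by NEUROD factors, occurred in 20.8%, 16.7% and 18.7%. Outside promoters these 2 motifs hardly differed between the sets. There the homeobox core was in 12.2% of gained, 11.8% of closing and 12.1% of all peaks, and the E-box in 22.6%, 23.2% and 22.9%. Within promoters the shares were 4.38%, 1.75% and 2.01% for the homeobox core and 9.02%, 6.78% and 7.63% for the E-box. The GC box GGGCGG, bound by KLF and SP factors, went the other way, at 8.28% of gained and 24.3% of closing peaks against 17.8% of all, but within promoters it was near 50.0% in gained, 50.1% in closing and 50.9% in all peaks. The core of the CTCF motif was in 0.228% of gained, 2.67% of closing and 3.38% of all peaks. Sites of CREB (TGACGTCA), of EGR factors (GTGGGCG, which shares letters with the GC box), of NPAS4 (TCACGAC), of RFX factors (GTTGCCA) and of SRF (the CArG box) were in at most 5.12% of any of the 3 sets and differed less between them. A motif match describes the letters, not the binding of a factor.

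**Figure D4:**
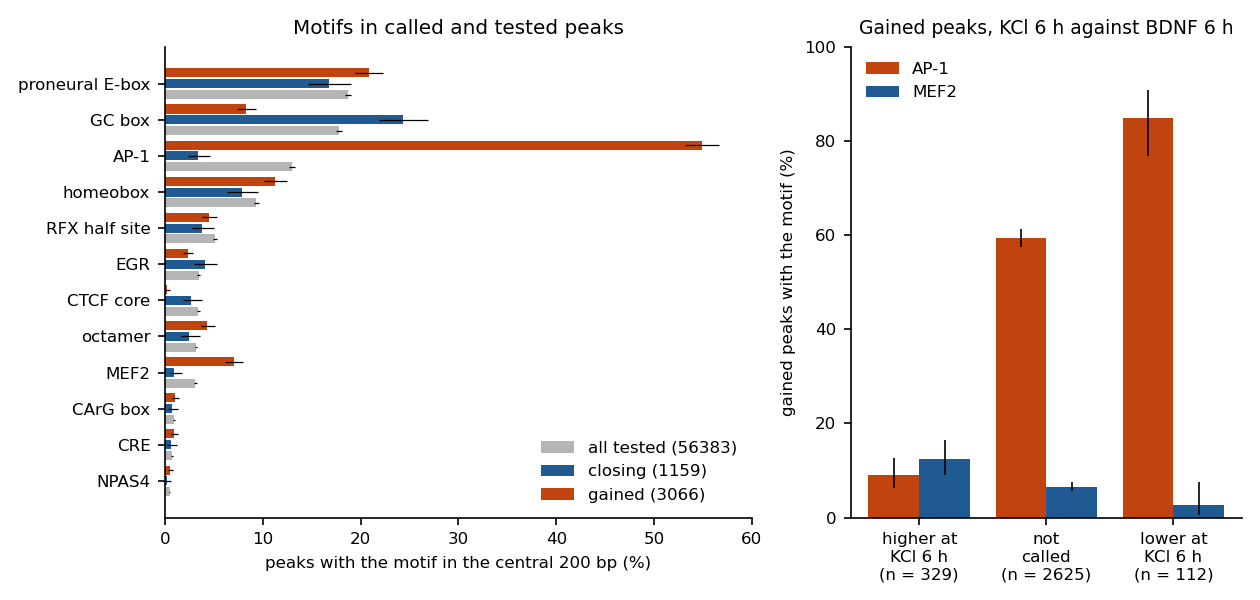
Left, the percentage of gained (orange, 3066), closing (blue, 1159) and all tested peaks (grey, 56383) with each of 12 motifs in the central 200 bp, with exact binomial 95% intervals, where AP-1 stands at 54.9%, 3.36% and 13.0%. Right, the share of gained peaks with an AP-1 (orange) or MEF2 motif (blue) by the direct contrast with BDNF 6 h, where AP-1 is in 9.12% of those higher at KCl 6 h and in 84.8% of those lower. The higher and lower peaks differ in control level, and shares at equal level were not tested.

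Gained peaks that were more open after KCl than after BDNF mostly lacked AP-1 motifs. In the direct contrast of KCl 6 h with BDNF 6 h, 775 of all tested peaks were higher (1.37%) and 1269 lower (2.25%, edgeR quasi-likelihood test, adjusted p below 0.1). Of the 3066 gained peaks, 329 were higher at KCl 6 h, 112 were lower and 2625 were not called. The 329 held AP-1 in 9.12% and MEF2 in 12.5%, and 31.3% were promoters. The 112 held AP-1 in 84.8% and MEF2 in 2.68%, and 1.79% were promoters. Against controls, the median log2 fold change of the 329 was 0.95 at KCl 6 h and -0.17 at BDNF 6 h, and that of the 112 was 1.5 and 2.94. These medians share the control libraries. The median control level was 40.3 scaled counts for the 329 and 10.1 for the 112, near the filter of 10. That filter used the mean over all ATAC-seq libraries, BDNF included, so weak peaks entered more easily if BDNF opened them. The AP-1 share of gained peaks was also lower at control means of at least 10. Whether the AP-1 shares differ at equal control level was not tested. Among closing peaks, 303 were lower at KCl 6 h than at BDNF 6 h and 0 higher, and 54.8% of the 303 were promoters. Gained and closing peaks were called on the same KCl 6 h libraries that enter this contrast. The choice of peaks thus favoured higher values for gained and lower values for closing peaks. These counts and motif shares are a description.

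Each library moved the numbers of calls in this contrast. Leaving out library A of BDNF 6 h gave 132 higher and 283 lower peaks, and leaving out its library B 289 and 536. Leaving out library A of KCl 6 h gave 389 and 568, and leaving out its library B 219 and 384. The AP-1 share of the gained and higher peaks stayed between 3.57% and 11.8% over 7 settings added after seeing the data, and that of the gained and lower peaks between 80.8% and 100%, where the last rests on 2 peaks without KCl 6 h library A. The MEF2 share of the gained and higher peaks was 3.77% on leaving out library A of KCl 6 h, near the 3.12% of all peaks, and at most 17.2% over the same settings. Their promoter share, 31.3%, was 11.3% with TMM, 10.1% with DESeq2 size factors, 41.0% with GC-corrected offsets and 54.7% on leaving out library A of KCl 6 h.

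Of the 8 largest gained peaks, 2 differed between the stimuli. Both peaks without AP-1 did, that near Mms22l by 2.37 ± 0.57 (log2, SE, edgeR adjusted p = 0.0111) and that in Dip2c by 2.13 ± 0.54 (edgeR adjusted p = 0.0183), higher after KCl. None of the 6 peaks with AP-1 was called in this contrast (edgeR adjusted p of 0.114 to 0.994), and each had also opened at BDNF 6 h against the shared controls, with log2 fold changes from 1.72 at the peak near Cdc73 to 4.04 at those near Lgsn and Aldoart1. The peak near Cdc73 differed by 1.73 ± 0.60, which did not pass the test. All 8 peaks passed the filter through stimulated libraries, which include those of BDNF 6 h. Opening at BDNF 6 h was thus favoured by the filter and is given as a description. Closing peaks in Cfap46 (-3.26 ± 0.99, edgeR adjusted p = 0.0591), at Pak1ip1 (-2.96 ± 0.85, 0.0435) and in Schip1 (-2.93 ± 0.86, 0.0502) were lower at KCl 6 h than at BDNF 6 h. The named peaks were chosen by their KCl 6 h counts, which enter this contrast too, so its p-values are given as a description.

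Along the KCl time course, most peaks could not be told apart between neighbouring times. KCl 6 h was higher than KCl 1 h at 97 peaks (0.172%) and lower at 64 (0.114%), of which 74 were gained and 25 were closing peaks. Gained and closing peaks were called on the same KCl 6 h libraries, so their part of these calls is a description. Leaving out library B of KCl 1 h gave 0 calls in either direction, and its library A 104 and 33. Leaving out library A of KCl 6 h gave 32 and 44, and its library B 31 and 9. No peak was called between KCl 6 h and KCl 10 h by edgeR, with 3339 peaks at an unadjusted p under 0.05. Against the shared controls, the median log2 fold change of gained peaks was 0.70 at KCl 1 h, 1.39 at KCl 6 h and 1.15 at KCl 10 h, and that of closing peaks -0.37, -1.03 and -0.38. The KCl 6 h medians are those by which peaks were called. In the direct contrast with KCl 1 h, the peak near Mms22l was higher by 2.32 ± 0.57 (edgeR adjusted p = 0.0652) and that in Fyn changed by -3.40 ± 0.82 (edgeR adjusted p = 0.0578).

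Most genes with a gained peak in reach had 1. Within 50 kb of a start of a protein-coding gene lay 1477 gained peaks at 1325 genes and 888 closing peaks at 845 genes, with 92 genes near both, of 14927 genes with a tested peak in reach. More than 1 gained peak was near 133 genes, 3 or more near 16 and 4 near 3 genes. Those 3 were Cacna2d1, Dclk1 and Tiam1. Cacna2d1 encodes an auxiliary subunit of voltage-gated calcium channels, and 4 of its 13 tested peaks gained, all of them in its introns and 3 with an AP-1 motif. The peak at chr5:16000985-16001303 held 34.2 and 46.9 scaled counts at KCl 6 h against 2.90 to 13.3 in controls, with a log2 fold change of 2.22 ± 0.37 (edgeR adjusted p = 1.23e-05). The peak at chr5:16016146-16016330, with a MEF2 and no AP-1 motif, held 18.4 and 27.1 against 1.69 to 6.26, a log2 fold change of 2.32 ± 0.55 (edgeR adjusted p = 0.00318). Both peaks had control means under the filter of 10, at 8.10 and 4.20, and so had the other gained peaks of Cacna2d1, at 7.30 and 6.09. All of them entered the test through high stimulated libraries. Cacna2d1 RNA was 1604 and 1404 normalised reads at KCl 6 h and 1393 to 1675 in controls, so the RNA groups overlapped. For RNA as a whole, limma called 33.4% of 16209 genes higher and 33.1% lower at KCl 6 h.

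Dclk1 encodes a kinase that binds microtubules, and 4 of its 21 tested peaks gained, among them 1 promoter peak (chr3:55461618-55462212) with 156 scaled counts in library A, 90.0 in library B and 68.2 to 106 in controls. The library B value lay inside the control range there, and the call was lost without library A. Another gained peak of Dclk1 had a control mean of 4.13, under the filter of 10. Tiam1 encodes an exchange factor that activates Rac, a regulator of spine actin. There, 4 of 12 tested peaks gained, of which 2 were promoters, and its RNA was higher, at 1059 and 846 normalised reads against 580 to 659 (log2 fold change 0.61 ± 0.08, limma adjusted p = 1.50e-06). The promoter peak of Tiam1 at chr16:90143478-90144467 (log2 fold change 0.35 ± 0.09) was not called with TMM, DESeq2 size factors or reads in peaks.

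Genes with 3 gained peaks that led by summed fold change were Ripply2 (of 5 tested), Kcnip4 (of 14), Colec10 (of 4), Syne1 (of 11) and Cubn (of 6). Control means were under 10 at peaks of Kcnip4 (4.58, 5.85 and 9.21), Ripply2 (7.70 and 4.67), Colec10 (6.35), Syne1 (3.55 and 9.51) and Cubn (8.70). Those peaks entered the test through high stimulated libraries. The ranking by number and summed fold change is thus a description. Ripply2 is known from somite formation, Kcnip4 encodes a partner of potassium channels, Colec10 a secreted lectin and Cubn an uptake receptor of epithelia. Colec10 RNA was 0 in all 8 libraries, and Ripply2 and Cubn RNA was at most 10.4 normalised reads in any of them. Kcnip4 RNA was lower, at 36.4 and 42.8 normalised reads against 55.3 to 67.4 in controls (log2 fold change -0.60 ± 0.17, limma adjusted p = 0.00525). Syne1 encodes a nuclear envelope protein with a synaptic isoform. Its RNA was 126 and 86.8 normalised reads at KCl 6 h against 28.8 to 46.0 in controls, a log2 fold change of 1.43 ± 0.20 (limma adjusted p = 3.16e-06), and its exon peak at chr10:5203701-5204245 held 42.6 and 63.5 scaled counts against 5.72 to 27.0 (log2 fold change 1.43 ± 0.31, edgeR adjusted p = 0.00111).

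More than 1 closing peak was near 40 genes, and 3 were near 3 genes. These were Fyn (3 of 22 tested, all in introns), Frmd4a, which encodes a scaffold of cell polarity (3 of 22), and Slc36a4, an amino acid transporter (3 of 7). Gained peaks lay near some of the same genes, 1 near Fyn, 2 near Frmd4a and 0 near Slc36a4. Fyn RNA was 3482 and 3180 normalised reads at KCl 6 h and 3017 to 3402 in controls. Slc36a4 RNA was higher, at 1601 and 1403 against 1155 to 1349 normalised reads (log2 fold change 0.29 ± 0.07, limma adjusted p = 0.000978). Next came Cfap46, with a closing promoter (chr7:139615870-139616546, log2 fold change -1.04 ± 0.33, edgeR adjusted p = 0.0467) beside the intron peak above. Cfap46 RNA fell to 19.7 and 9.26 from 33.8 to 54.9 normalised reads (log2 fold change -1.52 ± 0.31, limma adjusted p = 0.000207). Of the 38 peaks at these 12 loci, 9 kept their call when library A of KCl 6 h was left out and 21 when its library B was, and all 38 kept their sign.

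Gene lists of the activity response were read in the same way, with peaks within 50 kb of each gene. The background was 4.02% gained and 2.42% closing among 36712 tested peaks in that reach, and the median log2 fold change over all features tested was -0.00 for peaks and 0.01 for RNA. List medians ran from -0.06 to 0.15 for peaks and from 0.03 to 2.3 for RNA, so that RNA moved in lists whose peaks mostly did not pass the test. The lists hold genes of the activity response and were chosen with earlier results of these data known. The choice thus favoured RNA changes in them, which are given as a description. Listed peaks with a control mean under 10 entered the test through high stimulated libraries, and their p-values are given as a description. They include the gained peaks with the lowest p at Syt4, Kcnma1, Kcna1, Grin3a, Spred2 and Slc2a3. At genes of the AP-1 subunits themselves, 1 of 25 peaks gained and 1 closed (median log2 fold change 0.06), while RNA of 4 of 7 genes was higher and of 2 lower. The gained peak was nearest to Fos, at chr12:85436080-85436614, 37.5 kb upstream and in the promoter window of another transcript. It held 102 and 90.9 scaled counts against 36.0 to 57.4 (log2 fold change 1.12 ± 0.23, edgeR adjusted p = 0.000549) and differed from BDNF 6 h by 0.91 ± 0.28 (edgeR adjusted p = 0.0705). Fos RNA was 1727 and 1809 normalised reads at KCl 6 h and 25.1 to 43.3 in controls, a log2 fold change of 5.66 ± 0.15 (limma adjusted p = 2.82e-16). The closing peak was 14.1 kb downstream of Jun (log2 fold change -1.39 ± 0.44, edgeR adjusted p = 0.0436), whose RNA was 884 and 695 against 1096 to 1255 normalised reads.

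At genes of other rapid transcription factors, 7 of 45 peaks gained (15.6%), at 6 of 14 genes, and 1 closed. With TMM or DESeq2 size factors 5 of the 45 gained, and leaving out library A of KCl 6 h left 1. The median log2 fold change was 0.15 for these peaks and 2.07 for RNA, which was higher for 13 of the 14 genes. The nuclear receptor gene Nr4a1 gained at its promoter (chr15:101266257-101267037), where library A held 90.6 and library B 114 scaled counts against 37.1 to 62.1 in controls, a log2 fold change of 1.01 ± 0.22 (edgeR adjusted p = 0.00102) called under each of the 18 alternatives. Nr4a1 RNA was 4.88 ± 0.11 higher (log2, limma adjusted p = 1.74e-18). A peak 14.9 kb from Nr4a2 (chr2:57138651-57139082) held 50.7 and 28.2 against 11.8 to 23.2 (1.19 ± 0.34, edgeR adjusted p = 0.0196). A peak in a promoter window 2.77 kb upstream of Npas4 (chr19:4992925-4993245), which encodes a neuron-specific factor, held 52.1 and 47.0 against 19.0 to 32.2 (1.03 ± 0.30, edgeR adjusted p = 0.0256). The closing peak was 36.2 kb from Egr3, in an intron of Pebp4 (-1.04 ± 0.32), while Egr3 RNA was higher by 1.81 ± 0.22 (limma adjusted p = 5.07e-07). Gained promoter peaks at Maff (0.51 ± 0.17), Klf4 (0.32 ± 0.12) and the peak at Nr4a3 (0.28 ± 0.10) were not called with TMM or DESeq2 size factors.

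At late-response secreted factors 2 of 44 peaks gained and 1 closed (median log2 fold change -0.06), while all 16 genes had higher RNA (median 2.3). The peak 10.4 kb upstream of Scg2, which encodes a granin of secretory vesicles (chr1:79450212-79450893), held 90.1 and 55.6 scaled counts against 14.7 to 52.9 (0.97 ± 0.27, edgeR adjusted p = 0.0177) and was higher than at BDNF 6 h by 1.06 ± 0.34 (edgeR adjusted p = 0.0773). A peak 48.0 kb from Tac1, the substance P precursor gene, held 45.3 and 22.8 against 8.46 to 31.7, so library B lay within the control range. A peak 40.4 kb upstream of Adcyap1, which encodes the neuropeptide PACAP, closed (-1.41 ± 0.42, edgeR adjusted p = 0.0278) while its RNA was higher by 2.89 ± 0.24. At synaptic effectors, 3 of 45 peaks gained and 2 closed (median -0.06), and 13 of 15 genes had higher RNA (median 1.26). The largest was 20.0 kb upstream of Syt4, in the promoter window of another transcript, where Syt4 encodes a synaptotagmin of dense-core vesicles, with 36.2 and 12.7 scaled counts against 1.02 to 6.86 (2.74 ± 0.47, edgeR adjusted p = 2.32e-05). Promoters of Rgs4, a brake on G proteins (0.65 ± 0.19), and of the scaffold Homer1 (0.31 ± 0.09) gained, and that of Rgs2 closed (-0.33 ± 0.11) while its RNA was 1.61 ± 0.13 higher. Homer1 was not called with TMM, DESeq2 size factors or reads in peaks.

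Genes of calcium entry and signalling had many gained peaks and a median RNA change near 0. Of 116 peaks at the 17 genes with a peak in reach, 12 gained (10.3%) and 2 closed (median log2 fold change 0.11), while 6 of 18 genes had higher and 6 lower RNA (median 0.03). The closing peaks lay in introns of Cacna1e and Ppp3ca, at -2.35 ± 0.54 and -1.10 ± 0.32 (log2, edgeR adjusted p = 0.00247 and 0.0235). Leaving out library A of KCl 6 h left 3 gained peaks on this list. Beside Cacna2d1, an intron peak of Ppp3ca, the catalytic subunit of calcineurin (chr3:136788770-136789048), held 25.3 and 17.6 scaled counts against 1.00 to 7.05 (2.93 ± 0.52, edgeR adjusted p = 4.10e-05). Its RNA was 3884 and 4207 normalised reads against 4088 to 4744 in controls. Intron peaks of the channel genes Cacna1e (chr1:154500392-154500895) and Cacna1c (chr6:119091184-119091508) rose by 1.11 ± 0.23 and 2.08 ± 0.58 (edgeR adjusted p = 0.000406 and 0.0167). Cacna1e RNA changed by -0.76 ± 0.11 (limma adjusted p = 5.49e-06), and Cacna1c RNA was 812 and 617 normalised reads against 647 to 753. The Cacna1c peak was less open at KCl 6 h than at BDNF 6 h (-1.93 ± 0.50, edgeR adjusted p = 0.0223). The gained peaks with the lowest p at Cacna2d1, Ppp3ca and Cacna1c had control means of 8.10, 2.70 and 2.59, under the filter of 10. They entered the test through high stimulated libraries, so their p-values are given as a description.

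Potassium channel genes had 4 gained peaks of 69 (5.80%) and none that closed (median 0.05), and RNA was higher for 11 and lower for 3 of 17 genes (median 0.40). An intron peak of Kcnma1, a calcium-activated channel (chr14:23966504-23966826), held 26.9 and 17.6 scaled counts against 2.45 to 10.6 (1.85 ± 0.46, edgeR adjusted p = 0.00513), while its RNA was lower (-0.39 ± 0.13, limma adjusted p = 0.0167). The peak 7.43 kb from Kcna1 held 14.8 and 5.04 against 1.49 to 6.26, with library B inside the control range (1.58 ± 0.57, edgeR adjusted p = 0.0886), and Kcna1 RNA was 2.57 ± 0.10 higher (limma adjusted p = 1.29e-14). At glutamate and GABA receptor genes 3 of 55 peaks gained (median of all 55, 0.02), among them an intron peak of Grin3a (2.15 ± 0.49, edgeR adjusted p = 0.00228), and 2 closed, at the promoters of Gria2 (-0.48 ± 0.17) and Gabra5 (-0.49 ± 0.17). Gabra5 RNA was 1.20 ± 0.07 higher, 1 of 8 receptor genes with higher RNA beside 4 with lower RNA of 18 (median 0.11).

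At genes of MAP kinase feedback, which switch the kinase pathway off, 4 of 28 peaks gained (14.3%) and none closed (median 0.14), and 10 of 11 genes had higher RNA (median 1.13). An intron peak of Spred2 (chr11:19979271-19979668) held 21.8 and 23.5 against 1.16 to 14.5 (1.94 ± 0.42, edgeR adjusted p = 0.00114), and the promoter of the phosphatase gene Dusp1 (chr17:26507942-26509139) held 244 and 279 against 177 to 203 (0.42 ± 0.13, edgeR adjusted p = 0.0350), without a call under TMM, DESeq2 size factors or reads in peaks. Solute carriers of the late KCl response had 4 gained peaks of 46 (8.70%) and 1 closing (median 0.02), with higher RNA for 9 and lower RNA for 2 of 12 genes (median 0.51). The peak in an intron of the glucose transporter gene Slc2a3 (chr6:122758812-122758972) rested on library A alone, with 24.4 scaled counts there, 2.63 in library B and 1.37 to 6.77 in controls. The closing peak also lay in an intron of Slc2a3, at -0.91 ± 0.25 (log2, edgeR adjusted p = 0.0139). Of the 40 list genes with a called peak, 35 peaks were not called when library A of KCl 6 h was left out, and 13 when its library B was.

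**Figure D5:**
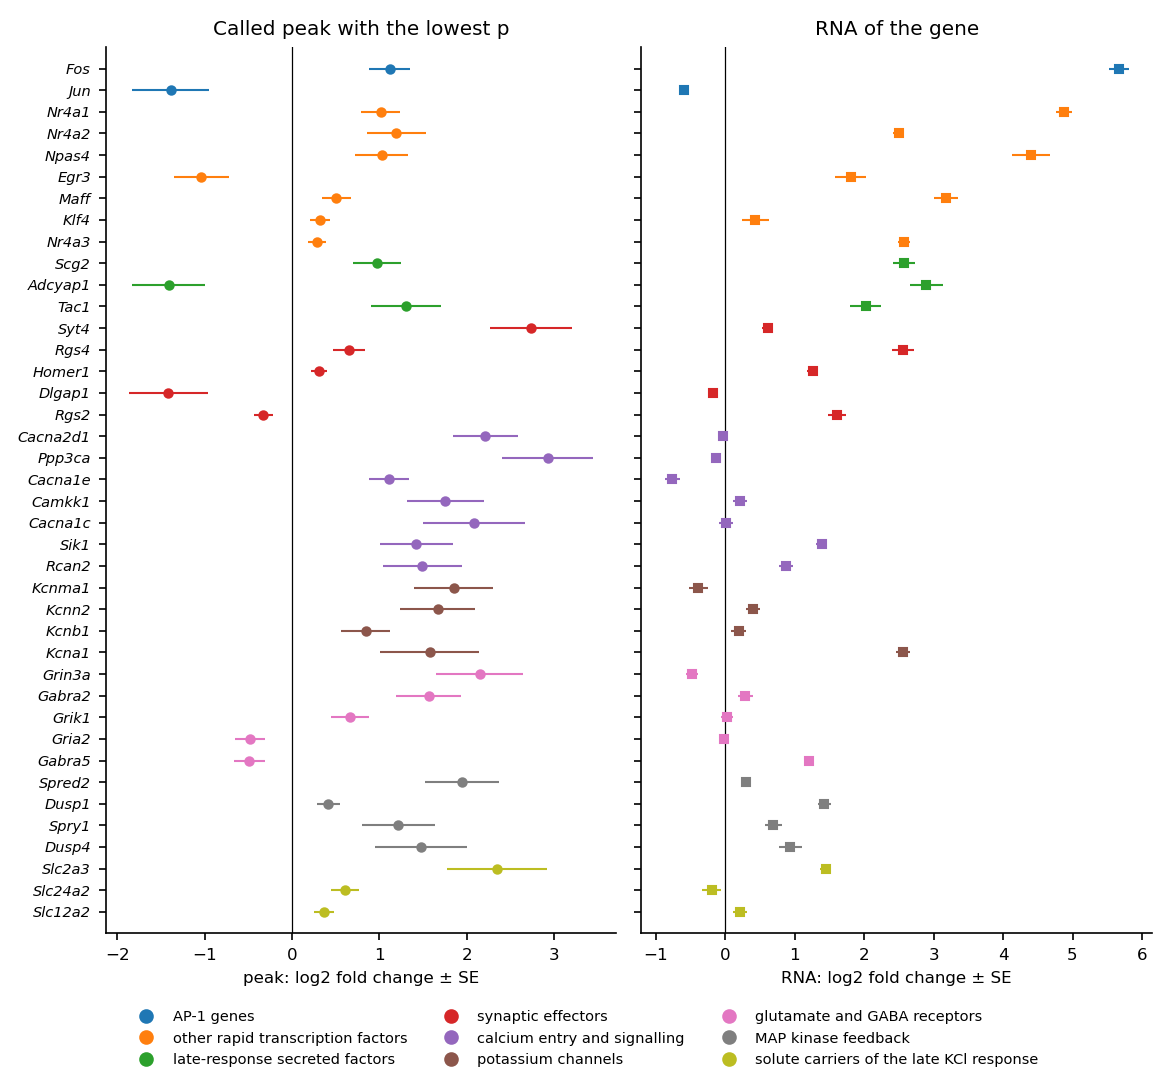
For the 40 list genes with a called peak within 50 kb, the log2 fold change ± SE at KCl 6 h against controls of the called peak with the lowest p (left) and of the RNA (right), coloured by list. Peaks span -1.42 at Dlgap1 to 2.93 at Ppp3ca, and RNA spans -0.76 at Cacna1e to 5.66 at Fos.

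RNA was higher somewhat more often near gained than near closing peaks. RNA at KCl 6 h was higher for 403 of 1072 genes near a gained peak (37.6%, 95% exact binomial interval 34.7 to 40.6) and for 223 of 744 near a closing peak (30.0%, 26.7 to 33.4), against 33.2% of genes near any tested peak. It was lower for 30.7% near gained and 37.9% near closing peaks, against 35.0%. Genes with a gained promoter peak had higher RNA in 39.9% of 286 cases and those with a closing promoter in 31.2% of 404, against 34.0% for any promoter peak. Read from the RNA side, 24 of 91 genes whose RNA rose at least 4-fold had a gained peak within 50 kb (26.4%), as did 86 of 522 that rose at least 2-fold (16.5%) and 66 of 940 that fell at least 2-fold (7.02%), against 8.96% of all genes with both measurements. These are counts beside their background and carry no test, since neighbouring genes and peaks are not independent.

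Peaks on chromosome X were lower at KCl 6 h as a group, which was seen after the values were examined. Of 1267 tested X peaks, 64 closed (5.05%) and 31 gained (2.45%), and the median log2 fold change was -0.20. The 19 autosomes had medians of -0.05 to 0.04, 1.24 to 2.90% closing and 3.74 to 6.99% gained. The 29 tested peaks of chromosome Y had a median of -0.29, and none of them was called. Chromosome Y took 0.0214% and 0.0230% of scaled reads at KCl 6 h and 0.0246 to 0.0282% in controls, so it was lower as well. Chromosome X took 1.83% and 1.79% of scaled reads at KCl 6 h and 2.06 to 2.15% in the 6 controls, so the groups did not overlap. It took 1.97% and 1.92% at KCl 1 h, 1.97% and 1.88% at KCl 10 h, and 2.17% and 2.15% at BDNF 6 h. RNA of 718 X-linked genes had a median log2 fold change of 0.05. Leaving out library A or B of KCl 6 h, 1.82% or 1.89% of X peaks closed, against 0.728% or 0.777% of autosomal peaks.

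Markers of other cell types were measured in the RNA libraries of the same groups. Neuron markers (Map2, Tubb3, Rbfox3, Snap25, Syt1 and Stmn2) were all detected, with a summed level of 52412 to 59892 normalised reads at KCl 6 h and 54695 to 60973 in controls. The 6 markers of astrocytes and radial glia were all lower (limma), summing to 13561 to 16313 against 17332 to 20058, and those of dividing cells summed to 2844 to 3188 against 3945 to 6629. Inhibitory neuron markers summed to 14284 to 16019 against 11126 to 13004, with 4 higher and 2 lower (limma), Dlx1 and Lhx6. Excitatory ones summed to 8259 to 8538 against 6649 to 7641, with 5 higher and Neurod2 lower. Those of the oligodendrocyte lineage summed to 6862 to 7242 against 5713 to 6194, with 2 higher and 2 lower of 5, and Olig1 went from 2305 to 2629 in controls to 3601 and 3644. Of the neuron markers 3 were higher and 2 lower, and of the 4 of dividing cells 2 were lower. Microglia markers summed to at most 110 and endothelial markers to at most 217 normalised reads in any library, with P2ry12 and Cldn5 under 10. Of the 4 microglia markers tested, 1 was lower and 0 higher (limma). Cx3cr1 held 4.92 and 6.95 normalised reads at KCl 6 h against 21.7 to 35.2 in controls. In bulk samples, fewer cells of a type and less RNA per cell cannot be told apart. Of 32 tested peaks near the glial markers 1 gained and 1 closed, of 7 near those of dividing cells none was called, and of 46 near the neuron markers 2 gained and 2 closed. The part of cell makeup in the peak calls was not tested.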

How the data were processed

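ATAC-seq and RNA-seq were each measured in 18 libraries, 2 for each of 9 groups taken from the labels. ATAC columns carried only the group, so A and B name columns in table order. Per the submitters' processing notes and the study's methods, reads were trimmed with Trimmomatic, mapped to mm10 with Bowtie2 (ATAC) or TopHat2 (RNA), and peaks were called per sample with MACS2, kept if seen in at least 2 samples and counted with DiffBind. The ATAC values deposited by the authors are raw counts of reads for 58177 peaks, with a lowest value of 1. The RNA values deposited by the authors are a signal, namely counts divided by DESeq2 size factors, for 26709 genes, of which 100% gave whole reads within 0.01. The authors' deposited tables of log2 fold changes, standard errors, mean scores and p-values were not used, and 0 columns of values were left unmapped.

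Peaks with a mean count of at least 10 were scaled with LOESS offsets, as the study describes, and tested with edgeR 4.0.16 (robust quasi-likelihood fit, 7 levels with controls pooled, R 4.3.3). RNA was tested with limma 3.58.1 on log2(value + 1), a scale that understates the fold changes of low genes. Tests were two-sided, and a feature was called below an adjusted p (Benjamini-Hochberg) of 0.1. Both fits were tested on simulated data. The standard error was the log2 fold change over the square root of F. Genes came from GENCODE M21 (the study used M16), and peaks were assigned to the nearest protein-coding start. Peaks named are the 8 gained and 6 closing with the largest fold change among called peaks with both KCl 6 h libraries beyond all 6 controls, those of the 8 and 4 genes with most gained and closing peaks within 50 kb (ties by summed fold change), and, for genes of 9 lists, the called peak with the lowest p. Members and lists were chosen with earlier results of these data known. RNA was measured in 9.75 to 36.7 M (mega) reads per library. Alternatives were other scalings, filters, tests and control sets, thinning, and leaving out libraries. Reads carry no molecular identifiers, so intervals cover counting error only.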

Additional observations from a re-analysis of the deposited data

Results flagged for a closer look

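Direct contrasts flagged 17 of the peaks described because KCl 6 h differed from BDNF 6 h or from KCl 1 h (edgeR quasi-likelihood test, adjusted p below 0.1). These peaks were chosen by their KCl 6 h counts, which enter the contrasts, so the flags are a description. Several of them had control means under 10 and entered the test through high stimulated libraries. Against BDNF 6 h the log2 difference was 2.37 at the peak near Mms22l, 2.13 in Dip2c, 1.06 near Scg2, 0.91 near Fos, 0.60 at the Klf4 promoter and 0.48 at the Dusp1 promoter. It was -3.26 in Cfap46, -2.96 at Pak1ip1, -2.93 in Schip1 and -1.93 in Cacna1c. At gained or closing peaks of the genes with several such peaks it was -1.97 in Cacna2d1 (chr5:16355835-16356228), 1.68 at Tiam1 (chr16:90169901-90170130), -1.36 at Ripply2 (chr9:86999968-87000242), -1.65 at Syne1 (chr10:5212688-5212930), and -1.58 and -1.25 at Frmd4a (chr2:4060688-4061037 and chr2:4402103-4402629). Against KCl 1 h it was 2.32 at the peak near Mms22l and -3.40 in Fyn.

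A control library stood apart from the other 5 by Dixon's ratio (above its 95% critical value) at 7 of 89 peaks and 1 of 49 RNA genes, where chance flags about 1 group in 20. The values were 3.35 scaled counts near Aldoart1 in control 6 h B (next 1.53), 309 at Klf4 in control 10 h A (next 266), 31.7 near Tac1 in control 10 h B (next 15.7), 7.05 in Ppp3ca in control 1 h B (next 3.19), 18.2 near Kcnn2 in control 1 h A (next 10.2), 14.5 in Spred2 in control 10 h A (next 6.04) and 6.77 in Slc2a3 in control 10 h B (next 3.24). Cfap46 RNA was 54.9 normalised reads in control 10 h B (next 41.7).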

How the results depend on the processing

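Of the called list peaks, 1 reversed, that in Slc2a3, at -0.34 (log2) without KCl 6 h library A, the lowest of a range up to 2.89 over left-out libraries. Gained and closing peaks were called 3066 and 1159 times. Settings that moved a count by over 1.5 times gave 4712 gained and 1809 closing with reads in peaks, 2228 closing with TMM, 2856 with DESeq2 size factors and 2971 with limma, 1424 and 744 with only KCl 6 h and controls, 1690 and 591 with the controls of 6 h, 1402 and 549 after thinning to the shallowest library, and 1056 and 164 at an adjusted p below 0.01. Leaving out a library gave 832 to 3228 gained and 424 to 1152 closing, the lowest without KCl 6 h library A. The gained share of calls was 65.9% (TMM), 58.2% (size factors), 71.0% (GC-corrected offsets), 74.7% (DESeq2 test), 53.6% (limma), 65.7% (only KCl 6 h and controls), 74.1% (controls of 6 h), 86.6% (adjusted p below 0.01) and 66.2 to 81.2% without a library. Against KCl 1 h, TMM gave 180 higher and 124 lower, size factors 171 and 164, and left-out libraries 0 to 104 and 0 to 44, with more lower than higher peaks (44 and 32) without library A of KCl 6 h. Against KCl 10 h, left-out libraries gave 0 to 9 and 0 to 14, and against BDNF 6 h 132 to 389 and 283 to 568, with 1949 lower by size factors. These direct contrasts' alternatives were chosen after seeing the data.

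Promoter shares of gained and closing peaks were 16.8% and 46.0% with a window of 2000 bp on both sides, 6.37% and 69.3% (TMM), 8.62% and 57.3% (adjusted p below 0.01), 16.8% and 29.9% (GC-corrected offsets), and 7.19 to 21.9% and 36.1 to 51.9% without a KCl 6 h library. AP-1 shares were 64.4% and 6.99% in 400 bp, 67.6% and 1.22% at an adjusted p below 0.01, 37.6% of gained peaks with a control mean of at least 10, 2.2% of closing peaks with TMM, and 50.4 to 63.2% and 2.12 to 3.10% without a KCl 6 h library. The leave-out, GC and control-mean settings of these shares were chosen after seeing the data. Beyond fewer libraries or a stricter threshold, the cause of these moves was not tested. RNA counts stayed within 1.5 times of 5417 and 5362, with 5488 and 5457 under a replicate block (13 of 36 same-letter correlations exceeded 0.1, range -0.31 to 0.42). No paired analysis was possible for ATAC because its columns carry no replicate number. Library B stood at 1 read in 10.2% of closing and 1.08% of gained peaks. Closing peaks were called by low KCl 6 h counts, so these shares do not measure what depth did to the calls.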

Other observations

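Among called peaks, those with the most reads were gained ones, and they were singled out after their values were seen. A peak at chr1:24608827-24618793 shared 45.5% of its 50-base words with the mitochondrial genome and held 71226 and 85649 scaled counts at KCl 6 h against 41319 to 53703 in controls (log2 fold change 0.74 ± 0.13, edgeR adjusted p = 0.00699). A peak at chr17:39843020-39848781, which overlaps most of the predicted gene Gm42418, held 40746 and 51752 against 20291 to 26101 (0.99 ± 0.14, edgeR adjusted p = 0.00144). The second shared 0 of its 50-base words with the mitochondrial genome. Gm42418 RNA was 15630 normalised reads in RNA library A and 435267 in library B at KCl 6 h, against 7925 to 18428 in controls (2.98 ± 1.00, limma adjusted p = 0.0224), so the RNA difference rested on library B. The gene took 3.26% of all RNA values in that library, against 0.0659 to 0.152% in controls. Where the reads of these peaks and of Gm42418 came from was not tested.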
